A study of Mus musculus with 6 samples.

Results

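The mitochondrial genome is read here through the 30 rows of the deposited gene table whose symbol starts with mt-, of 12125 rows in all. GENCODE annotates 37 genes on the mouse mitochondrial chromosome. The table lists all 13 protein genes, both rRNA genes and 15 of the 22 tRNA genes. The 7 tRNA genes that are not listed, mt-Tf, mt-Tv, mt-Tw, mt-Tr, mt-Th, mt-Ts2 and mt-Tl2, belong to the heavy-strand transcript, which holds 14 tRNA genes, whereas all 8 tRNA genes of the light-strand transcript are listed. Of the 30 rows, 27 passed the filter on low values, which was 10 normalized counts or more in 3 or more libraries.

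The libraries came from kidney cells of tamoxifen-treated mice, 3 of genotype Trf1+/+; Col1a2-CreERT2 and 3 of genotype Trf1flox/flox; Col1a2-CreERT2, with 1 library of 500 sorted cells for each mouse. Trf1 (gene symbol Terf1) encodes a shelterin protein that binds telomeres, and Cre driven by the Col1a2 promoter was meant to delete it in fibroblasts. Both genotypes carried the Cre transgene and a Cre-dependent reporter of Katushka fluorescent protein (KFP), and mice of both sexes, 6 to 8 weeks old at the start, received tamoxifen 3 times a week for 8 weeks. Cells were sorted with an antibody to CD29, an integrin, and an antibody to the reporter, and the gate whose cells were sequenced is not given in the sources used here. The replicates are numbered 1 to 3 within each genotype in the order of the records, and the numbers pair no mice.

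The mitochondrial genome is a small circle of DNA present in many copies in a cell. Each of its strands is transcribed as a long precursor from which tRNAs are cut out, and the cuts free the rRNAs and mRNAs between them. Its proteins are subunits of the respiratory complexes I, III, IV and V, and every other respiratory subunit is encoded in the nucleus. Most mitochondrial mRNAs carry short poly(A) tails and can be primed by oligo(dT), the primer used here, whereas mature tRNAs carry no such tail. Cells of the kidney tubule are rich in mitochondria.

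Sequences of the tRNA genes at the upper and lower ends of the measured range are shown first, since listed tRNA rows differed in mean level by up to 1777 times. They are printed in the direction of the tRNA, and capitals mark bases shared with a neighbouring gene. The following 4 rows held the most reads.
mt-Ts1: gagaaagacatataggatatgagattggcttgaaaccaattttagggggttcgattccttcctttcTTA
mt-Tp: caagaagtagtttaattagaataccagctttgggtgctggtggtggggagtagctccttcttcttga
mt-Te: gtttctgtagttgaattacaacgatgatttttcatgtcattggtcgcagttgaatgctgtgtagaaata
mt-Tq: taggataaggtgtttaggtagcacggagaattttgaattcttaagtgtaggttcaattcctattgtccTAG
These 4 genes lie on the light-strand transcript (the minus strand of the GRCm38 sequence), and in the order printed they carry serine, proline, glutamate and glutamine. mt-Ts1 (chrM:6870-6938) shares 3 bases with the end of mt-Co1, which is transcribed from the opposite strand, and mt-Tq (chrM:3772-3842) shares 3 bases with mt-Ti, also on the opposite strand. mt-Tp lies at chrM:15356-15422 and mt-Te at chrM:14071-14139. The following 3 rows, for alanine, aspartate and glycine, did not pass the filter.
mt-Ta: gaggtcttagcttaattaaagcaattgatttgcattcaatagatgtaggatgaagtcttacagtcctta
mt-Td: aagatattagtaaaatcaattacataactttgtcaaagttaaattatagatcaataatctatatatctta
mt-Tg: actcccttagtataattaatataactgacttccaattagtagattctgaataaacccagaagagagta
mt-Ta (chrM:5018-5086) belongs to the light-strand transcript, and mt-Td (chrM:6942-7011) and mt-Tg (chrM:9391-9458) to the heavy-strand transcript.

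Mitochondrial rows held between 14.8% and 49.5% of the listed reads of a library, and the genotypes overlapped. In the Trf1+/+ libraries it was 20.8%, 35.4% and 41.8%, and in the Trf1flox/flox libraries 35.3%, 49.5% and 14.8%. Both the highest and the lowest library were Trf1flox/flox, and the highest share was 3.35 times the lowest. Group means were 32.7% ± 10.8 (SD, n = 3) and 33.2% ± 17.5 (SD, n = 3), and the difference of 0.52 percentage points was far smaller than the spread between mice (p = 1, two-sided exact permutation over libraries). With 3 libraries in each group such a p cannot fall below 0.1. The 95% Wilson interval of each share was at most 0.0302 percentage points wide on either side. It covers counting error of the reads of 1 library only and leaves out the spread between mice. The reads were amplified by PCR and carry no molecular identifiers. They are therefore not independent, and the interval is too narrow even for counting error. The difference rested on single mice, since it was 9.73 points without Trf1flox/flox replicate 3 and -7.63 points without Trf1flox/flox replicate 2, -5.41 without the library labelled Trf1+/+ replicate 1 and -0.53 without Trf1flox/flox replicate 1. Set against the reads on all other rows, there were 26.3, 54.9 and 71.8 mitochondrial reads for each 100 other reads for Trf1+/+ and 54.6, 98.0 and 17.3 in the Trf1flox/flox libraries.

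**Figure D1:**
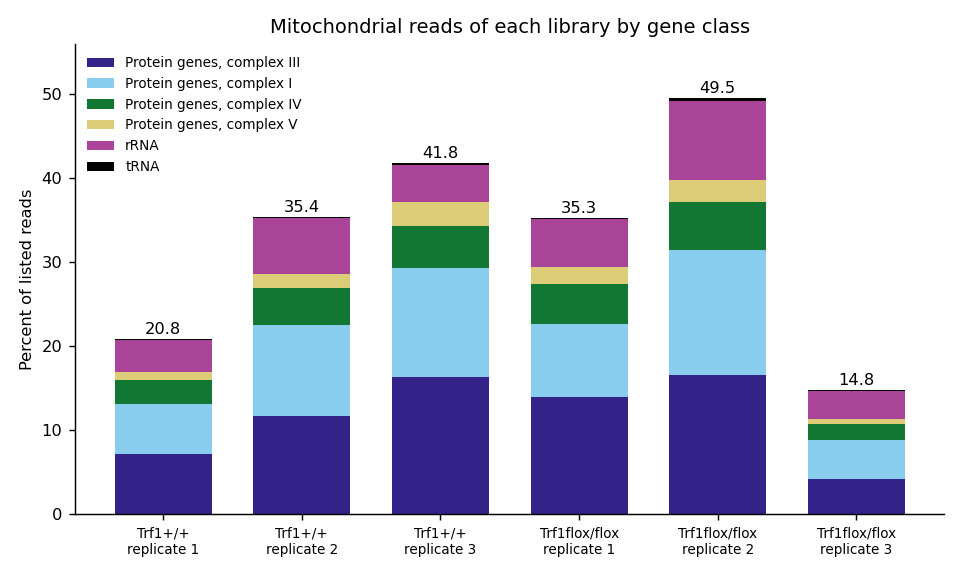
Stacked bars give the percent of all listed reads of each library (y axis) that fell on mitochondrial genes, divided into the rRNAs, the tRNAs and the protein genes of each respiratory complex, with the total above each bar. The totals run from 14.8% to 49.5%, and both extremes are Trf1flox/flox libraries.

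The libraries differed in other ways. They held 10263382 to 12248797 listed reads. The library labelled Trf1+/+ replicate 1 had the fewest genes above 0 (8967 against 9733 to 11593 in the other 5) and a median normalized count of 13.4 against 118 to 148. The normalized count of Terf1 was 0.891, 253 and 235 for the label Trf1+/+ and 110.0, 7.65 and 12.4 for the label Trf1flox/flox, so that the first Trf1+/+ value goes against its label, and Trf1flox/flox replicate 1 lay above both other Trf1flox/flox libraries and below both other Trf1+/+ libraries. Of 14 fibroblast markers 5 were listed, with Col1a2 at no more than 2 reads in each library. The labelled cell type is thus not borne out by Col1a2, whose promoter drove Cre. Dcn, S100a6 and Fn1 reached at most 97.3, 48.9 and 12.9 normalized counts, and each was at 0 in some library. Col1a1, Col3a1, Pdgfra and Pdgfrb were not listed, and a row that is not listed gives no count. The summed level of the 12 proximal tubule markers was 39522 to 172909 normalized counts in Trf1+/+ and 46766 to 181024 in Trf1flox/flox libraries, and that of the 5 markers of the loop of Henle and distal tubule was 73839 to 120636 and 55528 to 138180. Summed levels of the 5 fibroblast markers listed were 451 to 1679.9 and 94.5 to 1199, those of the 6 collecting duct markers were 592 to 9299.8 and 1336 to 17764, and those of the 3 immune markers listed were 279.8 to 1283 and 0 to 2513. Most of the fibroblast sum in each library was Gsn alone, at 1671, 1174 and 301 in Trf1+/+ and 79.0, 1094 and 203 in Trf1flox/flox libraries. Of 7 endothelial markers only Pecam1 was listed, at no more than 12.0. The 5 erythroid markers summed to 238, 2150 and 10472 in Trf1+/+ and to 121, 285 and 52403 in Trf1flox/flox libraries. The highest sum, with Hbb-bs at 22803, stood in Trf1flox/flox replicate 3, which had the lowest mitochondrial share. The next highest stood in Trf1+/+ replicate 3, with a mitochondrial share of 41.8%. The proximal tubule sum was also highest in Trf1flox/flox replicate 3 (181024), followed by the library labelled Trf1+/+ replicate 1 (172909, at a mitochondrial share of 20.8%). The part of tubule, blood and other cells in the mitochondrial share was not tested. In such bulk samples fewer cells of a type and less RNA per cell cannot be told apart.

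Protein genes made up most of the mitochondrial reads. They held 76.7% to 88.9% of them in each library, the rRNAs 10.6% to 22.5% and the tRNAs 0.412% to 0.749%. By complex, the 7 genes of complex I held 24.7% to 31.5%, the single gene of complex III 28.1% to 39.5%, the 3 genes of complex IV 11.6% to 13.9% and the 2 genes of complex V 4.21% to 6.93%.

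mt-Cytb, which encodes cytochrome b of complex III (chrM:14145-15288), was the highest mitochondrial row in every library. It gave 781572, 1129999 and 1645878 normalized counts across the Trf1+/+ libraries and 1259994, 2041097 and 293525 across the Trf1flox/flox libraries. Trf1flox/flox replicates 2 and 3 held the highest and the lowest value, with all 3 Trf1+/+ libraries between them. It averaged 1185820 ± 434848 (SD, n = 3) across Trf1+/+ and 1198210 ± 875423 (SD, n = 3) across Trf1flox/flox mice.

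Among the complex I genes, whose proteins form the membrane arm of NADH dehydrogenase, mt-Nd1 (chrM:2751-3707) was the highest, with 215761, 386613 and 606082 across the Trf1+/+ and 295245, 705072 and 118035 across the Trf1flox/flox libraries. mt-Nd4 (chrM:10167-11544) had 162214, 258336 and 263162 in Trf1+/+ against 198504, 442258 and 86055 in Trf1flox/flox libraries. mt-Nd2 (chrM:3914-4951) had 104504, 157123 and 202871 in Trf1+/+ against 119767, 297179 and 53793 in Trf1flox/flox libraries. These 3 genes were highest in Trf1flox/flox replicate 2 and lowest in Trf1flox/flox replicate 3. mt-Nd5 (chrM:11742-13565), the longest of the protein genes, had 112526, 169966 and 173008 across the Trf1+/+ and 117362, 252760.2 and 42583 across the Trf1flox/flox libraries. mt-Nd6 (chrM:13552-14070), the only protein gene of the light-strand transcript, had 43724, 84110.0 and 69575 in Trf1+/+ against 55190.3, 142538 and 27933 in Trf1flox/flox libraries. Both spanned the same pair of extreme libraries. mt-Nd3 had 827, 2298 and 1786 in Trf1+/+ against 595, 3274 and 927 in Trf1flox/flox libraries, and its lowest value stood in Trf1flox/flox replicate 1. mt-Nd4l (chrM:9877-10173) had 171, 356 and 487 in Trf1+/+ against 259, 582 and 97.9 in Trf1flox/flox libraries. The last 2 genes were far below the other complex I genes in all libraries.

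Among the complex IV genes, which encode the core of cytochrome c oxidase, mt-Co1 (chrM:5328-6872) had 300114, 400330.4 and 477118 normalized counts across the Trf1+/+ and 409615, 657224 and 125479 across the Trf1flox/flox libraries. mt-Co3 (chrM:8607-9390) had 14069.6, 23187 and 27350.0 in Trf1+/+ against 18559, 44620.2 and 8938 in Trf1flox/flox libraries. mt-Co2 (chrM:7013-7696) had only 1012, 1561 and 2006 in Trf1+/+ against 1307, 3516 and 615 in Trf1flox/flox libraries. The order mt-Co1, mt-Co3, mt-Co2 held in every library.

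Complex V is ATP synthase, and its 2 mitochondrial genes lie side by side in the same mRNA. mt-Atp8 had 94429, 141584 and 250019.7 across the Trf1+/+ and 153249.6, 260353 and 34886 across the Trf1flox/flox libraries. mt-Atp6 had 16780.0, 26274 and 43086 in Trf1+/+ against 26312, 52154 and 9159.5 in Trf1flox/flox libraries. In every library mt-Atp8 was the higher, although it is the shorter gene.

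The rRNA rows were among the highest. mt-Rnr1, the rRNA of the small mitochondrial ribosomal subunit, had 119169.9, 173913 and 123610.1 normalized counts across the Trf1+/+ and 179213, 388425 and 69423 across the Trf1flox/flox libraries. mt-Rnr2, the rRNA of the large subunit, had 290603, 471300.1 and 326655 in Trf1+/+ against 339432, 782528 and 166036 in Trf1flox/flox libraries. Trf1flox/flox replicate 2 was again the highest library and Trf1flox/flox replicate 3 the lowest.

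Among the tRNA rows, the serine tRNA mt-Ts1 stood apart, with 8046, 11779.7 and 11361 normalized counts across the Trf1+/+ and 10384, 20841 and 5436 across the Trf1flox/flox libraries. The proline tRNA mt-Tp had 3391, 3309 and 4052 in Trf1+/+ against 3044, 7146 and 1332 in Trf1flox/flox libraries. The glutamate tRNA mt-Te had 743, 1172 and 1026 in Trf1+/+ against 847, 2238 and 684 in Trf1flox/flox libraries. These rows, shown above by sequence, spanned the same extreme libraries as the protein genes. The glutamine tRNA mt-Tq had 120.2, 329 and 507 in Trf1+/+ against 165, 746 and 162 in Trf1flox/flox libraries. The cysteine tRNA mt-Tc had 40.1, 133 and 93.6 in Trf1+/+ against 36.9, 195 and 68.9 in Trf1flox/flox libraries. The isoleucine tRNA mt-Ti had 39.2, 66.3 and 81.8 in Trf1+/+ against 43.0, 149.7 and 39.97 in Trf1flox/flox libraries. In all 3 rows the groups overlapped. The methionine tRNA mt-Tm had 36.5, 44.7 and 132 in Trf1+/+ against 33.5, 76.5 and 11.0 in Trf1flox/flox libraries, and was highest in Trf1+/+ replicate 3. The tyrosine tRNA mt-Ty had 35.6, 67.1 and 39.4 in Trf1+/+ against 16.3, 95.1 and 48.9 in Trf1flox/flox libraries. The asparagine tRNA mt-Tn had 21.4, 53.0 and 46.3 in Trf1+/+ against 24.9, 110.4 and 27.6 in Trf1flox/flox libraries. Both were highest in Trf1flox/flox replicate 2. At the lower end, the threonine tRNA mt-Tt had 22.3, 9.11 and 13.8 in Trf1+/+ against 11.2, 39.3 and 6.2 in Trf1flox/flox libraries. The leucine tRNA mt-Tl1 had 6.23, 25.7 and 14.8 in Trf1+/+ against 18.9, 18.6 and 4.13 in Trf1flox/flox libraries. The lysine tRNA mt-Tk had 3.56, 20.7 and 11.8 in Trf1+/+ against 5.16, 20.8 and 2.76 in Trf1flox/flox libraries. These low rows rest on 4 to 36 reads in a library, where counting error alone is large. The rows of mt-Ta, mt-Td and mt-Tg, with a mean under 10, held 1 to 18 reads in a library.

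**Figure D2:**
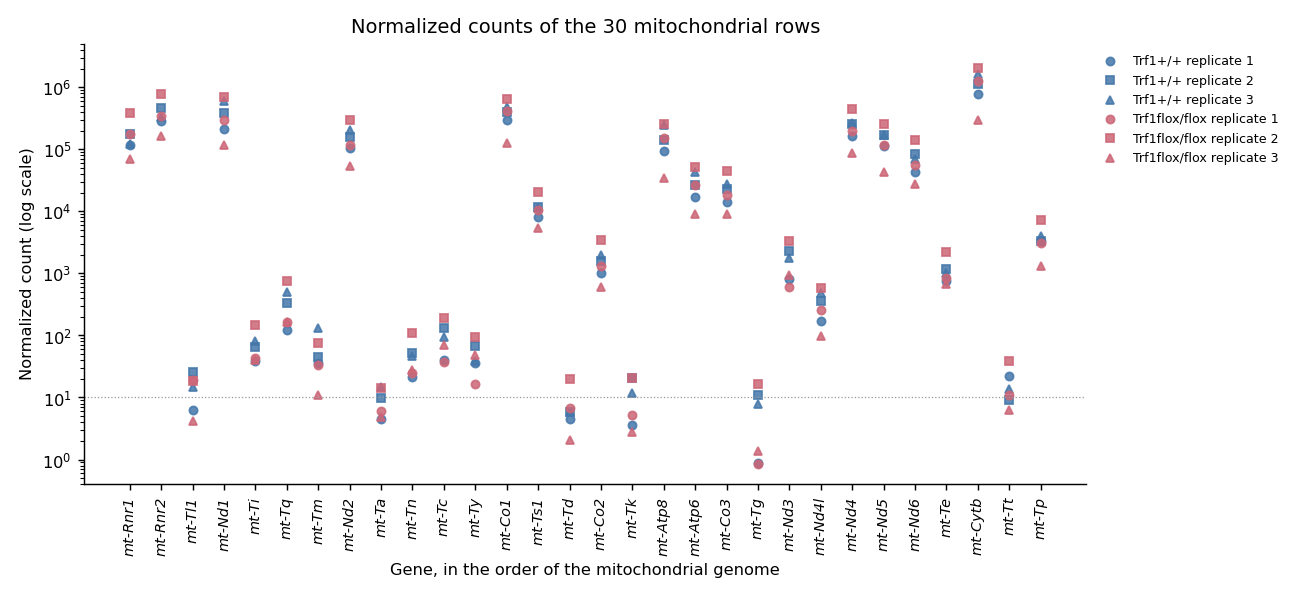
Normalized counts (y axis, log scale) of the 30 mitochondrial rows, in the order of their genes along the genome (x axis), with 1 symbol for each of the 6 libraries and a dotted line at the filter of 10 normalized counts. Trf1flox/flox replicate 2 is the highest library in 27 of the 30 rows and Trf1flox/flox replicate 3 the lowest in 22.

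The levels of the rows moved together from library to library. Trf1flox/flox replicate 2 was the highest library in 27 of 30 rows and Trf1flox/flox replicate 3 the lowest in 22, and the sum over all rows was 5.84 times higher in the first than in the second. The libraries differed much less in composition. For the 15 rRNA and protein rows the median SD between mice of a genotype was 0.94 on the log2 scale for the normalized count and 0.21 for the share of mitochondrial reads. For comparison, the median SD was 0.65 over the 1221 tested genes whose mean normalized count reached 1000 and 2.17 over all 9966 tested genes. The share of mt-Co1 varied least among these rows, between 10.8% and 13.2% of the mitochondrial reads, and that of mt-Cytb lay between 28.1% and 39.5%. The share of mt-Nd3 varied most, from 0.0186% to 0.0887%. The most constant ratio of reads was that of mt-Co2 to mt-Co3, between -3.89 and -3.67 on the log2 scale over the 6 libraries, and the ratio of mt-Nd1 to mt-Nd4l lay between 10.1 and 10.3. The rRNA shares were lowest in Trf1+/+ replicate 3, at 2.92% for mt-Rnr1 and 7.72% for mt-Rnr2, against 5.05% to 6.64% and 10.6% to 15.9% in the other 5 libraries.

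**Figure D3:**
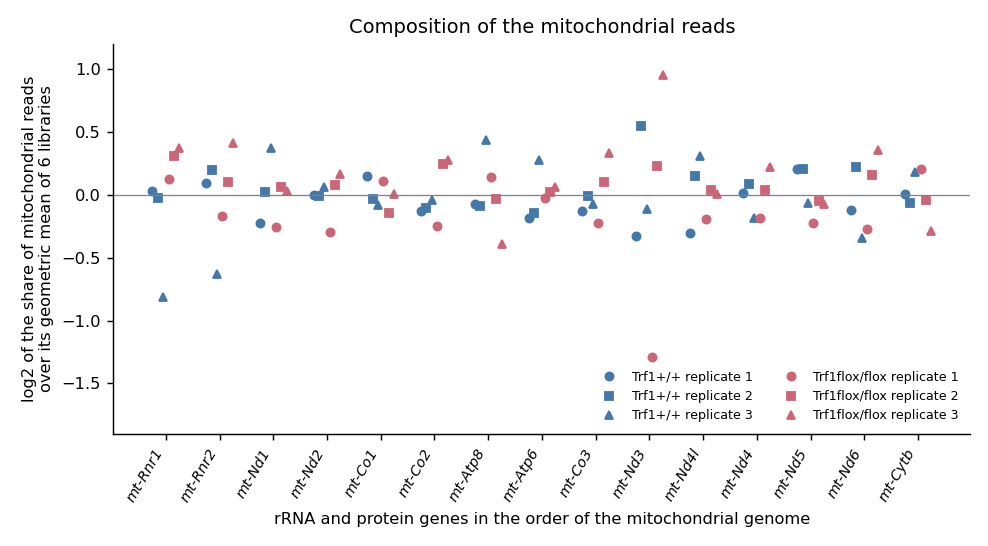
For each rRNA and protein gene (x axis), symbols give the log2 of its share of the mitochondrial reads of a library over the geometric mean of its shares in the 6 libraries (y axis). Most symbols lie close to 0, with mt-Nd3 spread most widely and both rRNAs lowest in Trf1+/+ replicate 3.

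The contrast of the genotypes was taken with limma on log2(normalized count + 1), and p-values were adjusted over the 9966 genes tested. The fold changes are differences of mean log2 values. In low rows they shrink with a larger pseudocount and depend heavily on single libraries near 0. No mitochondrial row was called. The background was 0% as well, since limma called none of the genes (312, or 3.13%, had an unadjusted p under 0.05), edgeR called 0 (196 at an unadjusted p under 0.05) and DESeq2 called 58. Among the mitochondrial rows 0 of 27 had an unadjusted p under 0.05 in each of these tools, and the smallest adjusted p was 0.973 from limma. The log2 fold change of every row was smaller than its standard error. Of the 27 rows 6 had a log2 fold change above 0 (Trf1flox/flox over Trf1+/+) and 21 below 0, with a median of -0.18, against 55.9% above 0 and a median of 0.20 over all tested genes. This split rested on the scaling and on single mice. The count above 0 was 13 after upper quartile scaling, 15 in edgeR and 19 in DESeq2. Without Trf1flox/flox replicate 2 it was 0 of 27 with a median of -0.73, and without Trf1flox/flox replicate 3 it was 24 with a median of 0.42. Without the library labelled Trf1+/+ replicate 1 it was 2 with a median of -0.44. Without any of the other 3 libraries it was 11 to 13, with a median between -0.05 and -0.01.

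Among the protein genes all 13 log2 fold changes were below 0 in this fit, with a median of -0.27, but the sign depended on the setting. Of the 4 protein genes named here, mt-Nd5, mt-Cytb, mt-Co1 and mt-Nd6, each was above 0 without Trf1flox/flox replicate 3. In DESeq2 mt-Cytb, mt-Co1 and mt-Nd6 were above 0, and mt-Nd6 was also above 0 in edgeR, with both other scalings and without Trf1+/+ replicate 2 (0.13). mt-Nd5 had the lowest value of the 13, at -0.46 (standard error 0.60, adjusted p = 0.973 from limma), which was -0.21 in edgeR, -0.14 in DESeq2, -1.08 without Trf1flox/flox replicate 2 and 0.21 without Trf1flox/flox replicate 3. The values were -0.32 (standard error 0.75) for mt-Cytb, -0.25 (standard error 0.62) for mt-Co1 and -0.07 (standard error 0.56) for mt-Nd6. Of the rRNAs, mt-Rnr1 had 0.31 (standard error 0.59), which was -0.29 without Trf1flox/flox replicate 2 and 0.95 without Trf1flox/flox replicate 3. Among the 12 tested tRNA rows 5 were above and 7 below 0, from -0.94 (standard error 2.14) for mt-Tm. This lowest value was -0.24 without Trf1flox/flox replicate 3, -0.38 without Trf1+/+ replicate 3 and -1.59 without Trf1flox/flox replicate 2. mt-Ts1 had 0.04 (standard error 0.49), which was -0.13 without the library labelled Trf1+/+ replicate 1, -0.45 without Trf1flox/flox replicate 2 and 0.52 without Trf1flox/flox replicate 3. By strand, the median was -0.25 over the 19 rows of the heavy-strand transcript and -0.0017 over the 8 of the light-strand transcript. Apart from mt-Nd6 these light-strand rows are all tRNAs, and the median over the 12 tested tRNA rows was also -0.0017. Strand and gene class therefore cannot be told apart in these medians. In none of the 27 tested rows did the normalized counts of the 2 genotypes separate without overlap, whereas they did in 8.68% of the tested genes.

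**Figure D4:**
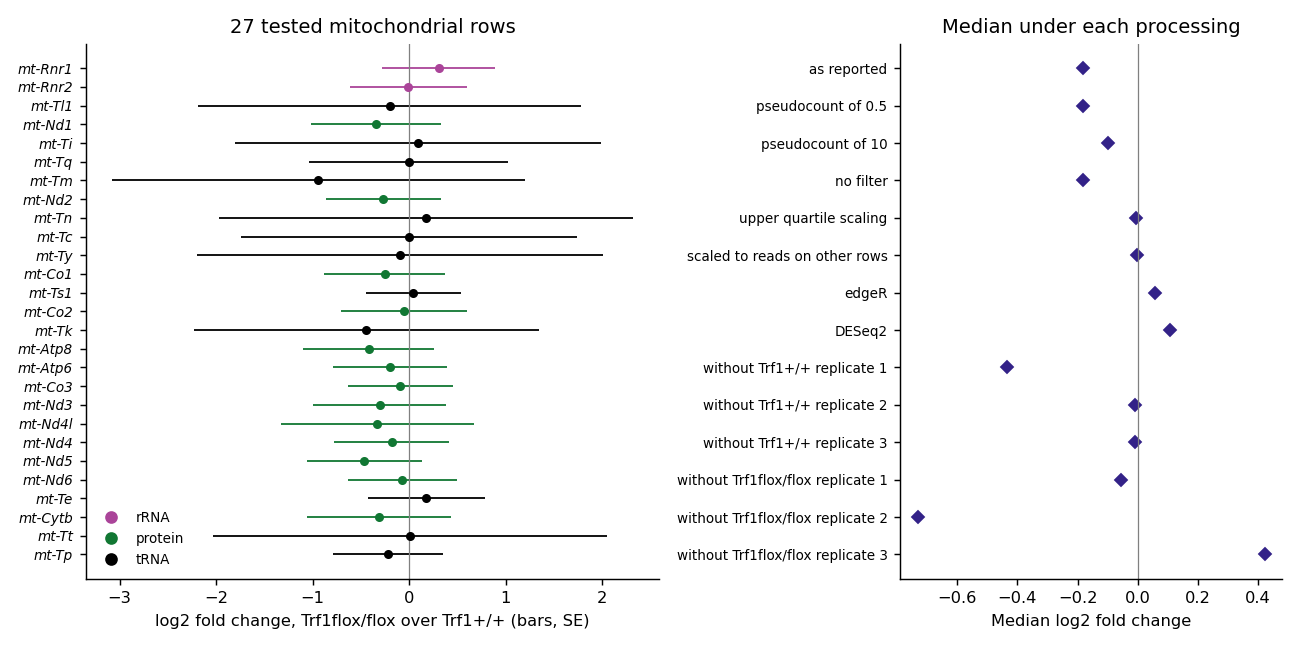
Left, log2 fold change of Trf1flox/flox over Trf1+/+ (x axis; bars, standard error from limma) for each of the 27 tested rows, in genome order. Right, the median of these values under each processing and with each library left out; all bars on the left cross 0, and the medians run from -0.73 to 0.42.

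Shares within the mitochondrial reads ask whether gene classes and strands kept their balance apart from the total. The rRNAs held 18.1%, 18.7% and 10.6% of the mitochondrial reads for Trf1+/+ and 16.3%, 19.2% and 22.5% in the Trf1flox/flox libraries. The means were 15.8% ± 4.49 and 19.3% ± 3.13 (SD, n = 3 each; exact two-sided permutation test, p = 0.4, adjusted p = 0.75), and the difference of 3.51 points was 0.93 without Trf1+/+ replicate 3 and 1.91 without Trf1flox/flox replicate 3. The tRNAs held 0.551%, 0.495% and 0.412% in Trf1+/+ and 0.459%, 0.520% and 0.749% in Trf1flox/flox libraries (exact two-sided permutation test, p = 0.5, adjusted p = 0.75, n = 3 each), and the difference of 0.0902 points was 0.0036 without Trf1flox/flox replicate 3. Adjusted values are over the 6 shares and ratios tested. The groups overlapped in both classes. The highest rRNA and tRNA shares stood in Trf1flox/flox replicate 3, the library with the fewest mitochondrial reads.

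Rows of the light-strand transcript held 2.47%, 2.93% and 2.05% of the mitochondrial reads for Trf1+/+ and 2.19%, 2.85% and 3.41% in the Trf1flox/flox libraries, most of them on mt-Nd6. The difference of 0.33 points was smaller than the SD of either group (exact two-sided permutation test, p = 0.5, adjusted p = 0.75, n = 3 each), and it was 0.0327 without Trf1flox/flox replicate 3. Among the tRNA reads alone the balance was the opposite, with 98.5% to 99.2% of them on the 8 light-strand rows and 86.4% to 91.7% on mt-Ts1 and mt-Tp together. Strand here is that of the annotated gene. The kit does not mark strand, so reads of a gene and of the opposite transcript over it cannot be told apart, and this touches mt-Nd6, which shares 14 bases with mt-Nd5, and all light-strand tRNAs.

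Both rRNAs lie on the same precursor, mt-Rnr1 at chrM:70-1024 and mt-Rnr2 at chrM:1094-2675. The log2 ratio of mt-Rnr2 to mt-Rnr1 reads was 1.29, 1.44 and 1.40 for the Trf1+/+ libraries and 0.92, 1.01 and 1.26 for the Trf1flox/flox libraries. It was lower in every Trf1flox/flox library than in every Trf1+/+ library, but the gap between the closest libraries, 1.29 in the library labelled Trf1+/+ replicate 1 and 1.26 in Trf1flox/flox replicate 3, was small. The means were 1.38 ± 0.08 and 1.06 ± 0.17 (SD, n = 3 each). The exact two-sided permutation p of 0.1 is the smallest that this design can give and did not pass 0.05, and its adjusted value was 0.6. With each library left out in turn, the difference lay between -0.41 and -0.24. Among the 27 tested rows, the share of mitochondrial reads separated the genotypes without overlap for mt-Rnr1 and mt-Tm, which is 2 rows. Divided by the mitochondrial reads in the same way, 7.48% of all tested genes did so.

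Of the reads on protein genes, the complex IV genes held 17.1%, 15.3% and 13.5% for the Trf1+/+ libraries and 16.2%, 14.4% and 16.8% in the Trf1flox/flox libraries (exact two-sided permutation test, p = 0.7, adjusted p = 0.84, n = 3 each). The difference of 0.53 points was within the spread between mice, and it was -0.37 without Trf1+/+ replicate 3. The 3 Trf1flox/flox libraries lay inside the range of the Trf1+/+ libraries.

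Per length, the levels of the protein genes differed widely. mt-Cytb had a mean of 1041970 normalized counts per kilobase over the 6 libraries and mt-Atp8 763498, followed by mt-Nd1 (405226), mt-Co1 (255650), mt-Nd4 (170601), mt-Nd2 (150167), mt-Nd6 (135860) and mt-Nd5 (79332). The remaining 5 were lower, with mt-Atp6 at 42527, mt-Co3 at 29065, mt-Nd3 at 4649, mt-Co2 at 2441 and mt-Nd4l at 1096. In each of the 6 libraries the lowest of the first 8 genes, mt-Nd5, was above the highest of these 5, mt-Atp6. The median per kilobase of the 8 genes was 26.97 to 107 times that of the 5. This division into 8 and 5 genes was made by the nuclear copies described next, not by a gap in level. As a ratio, the step from mt-Nd5 to mt-Atp6 was smaller than that from mt-Co3 to mt-Nd3 within the 5. The contrast was sharp within single mRNAs. mt-Atp8 had 763498 against 42527 for mt-Atp6, which overlaps it, and mt-Nd4 had 170601 against 1096 for mt-Nd4l, which overlaps it by 7 bases.

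The 5 low genes share nearly complete copies in annotated nuclear transcripts, the only nuclear sequences searched. Of their 50-base windows, 98.0% to 100% occur unchanged in an annotated nuclear transcript, as do 98.1% to 100% of their 36-base windows and 97.8% to 99.9% of their 75-base windows. For the other 8 genes the share of 50-base windows was 0% for mt-Cytb, mt-Atp8, mt-Nd1 and mt-Nd6, 7.61% for mt-Nd5, 8.19% for mt-Nd2, 51.1% for mt-Co1 and 62.2% for mt-Nd4. With 36-base windows it was 0% for mt-Nd1, 2.69% for mt-Nd6, 3.07% for mt-Cytb, 4.73% for mt-Atp8, 11.1% for mt-Nd2, 14.0% for mt-Nd5, 59.7% for mt-Co1 and 62.6% for mt-Nd4. The nuclear copies of the 5 genes are pseudogenes in an insertion of mitochondrial DNA on chromosome 1, which lie on GRCm38 between 24612407, the start of Gm10222 (a copy of mt-Nd4l), and 24615565, the end of Gm28661 (a copy of mt-Co2). mt-Co2 and Gm28661 were identical over 681 of 681 bases, mt-Atp6 and Gm10925 over 678 of 678, mt-Co3 and Gm28437 over 783 of 783, and mt-Nd4l and Gm10222 over 294 of 294. A read from such a stretch aligns equally well to both places. How the authors' counting treated such reads is not given in the sources used here, and the part of the copies in these low values was not tested.

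The starts of mt-Nd3 (chrM:9459-9806, plus strand) and its copy Gm28438 are shown because the pair differs at a single base over the 345 bases of the copy. Capitals mark that base.
mt-Nd3: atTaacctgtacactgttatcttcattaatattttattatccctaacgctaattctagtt
Gm28438: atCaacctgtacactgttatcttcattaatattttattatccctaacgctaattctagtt
The substitution is T3C, counted from 1 at the first base of mt-Nd3. The other end of the range is shown by the overlap of the 2 complex V genes, with the end of mt-Atp8 (bases 115 to 204) above the first 90 bases of mt-Atp6 and their 43 shared bases in capitals.
mt-Atp8: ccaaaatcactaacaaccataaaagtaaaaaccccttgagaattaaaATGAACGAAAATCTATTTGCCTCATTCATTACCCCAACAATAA
mt-Atp6: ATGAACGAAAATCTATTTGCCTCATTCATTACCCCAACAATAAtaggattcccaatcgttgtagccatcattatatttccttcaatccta
mt-Atp8 spans chrM:7766-7969 and mt-Atp6 chrM:7927-8607, both on the plus strand. The shared bases start with the start codon of mt-Atp6. None of the 50-base windows of mt-Atp8 occurs in an annotated nuclear transcript, while 99.5% of those of mt-Atp6 do. In the mitochondrial genome mt-Atp8 lies between mt-Co2 and mt-Atp6. The stretch between their copies on chromosome 1, from 24614651 to 24614885, was not searched outside annotated transcripts. Whether it holds a copy of mt-Atp8 was therefore not tested.

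**Figure D5:**
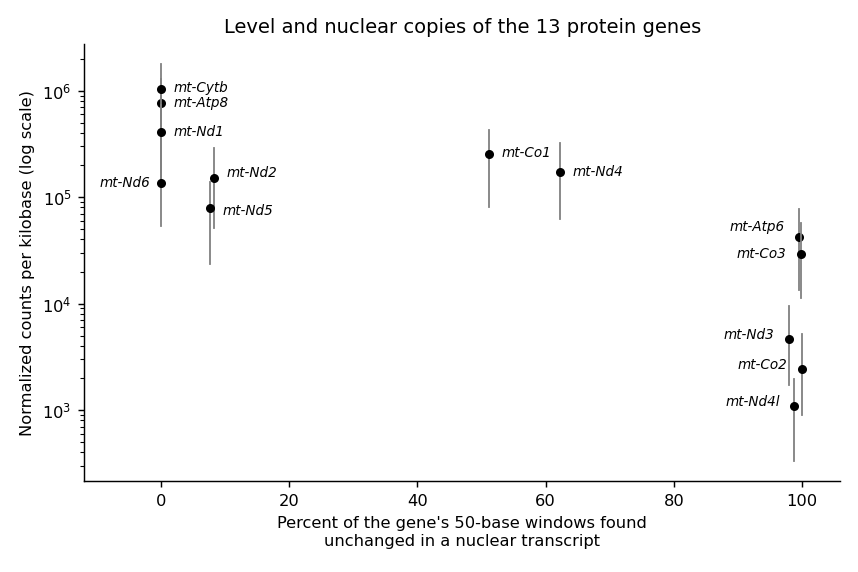
Mean normalized counts per kilobase over the 6 libraries (points; y axis, log scale), with lines from the lowest to the highest library, against the percent of each protein gene's 50-base windows found unchanged in an annotated nuclear transcript (x axis). The 5 genes with 98.0% or more are the 5 lowest, and those with 62.2% or less lie above them. Copies outside annotated transcripts, such as a possible one of mt-Atp8, were not searched.

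Rows of the chromosome 1 copies were listed for 5 pseudogenes and held few reads, with 1 exception. Gm28437, the copy of mt-Co3, had 1.78, 18669 and 30.5 normalized counts across the Trf1+/+ and 42.1, 22.9 and 0 across the Trf1flox/flox libraries, so that it was high in Trf1+/+ replicate 2 alone. In that library mt-Co3 had 23187. Gm29216, a partial copy of mt-Co1, had 62.3, 91.1 and 142 in Trf1+/+ against 76.5, 199.99 and 26.9 in Trf1flox/flox libraries. Gm10925, the copy of mt-Atp6, had 60.6, 34.8 and 79.8 in Trf1+/+ against 71.3, 104 and 6.89 in Trf1flox/flox libraries. The groups overlapped in these rows too. Gm28661, the copy of mt-Co2, had 0.891, 40.6 and 66.0 in Trf1+/+ against 61.9, 65.6 and 0 in Trf1flox/flox libraries. Gm28439, a partial copy of mt-Nd4, had 0.891, 26.5 and 30.5 in Trf1+/+ against 1.72, 42.6 and 0 in Trf1flox/flox libraries. All 5 passed the filter and 0 were called by limma (0% of all genes were called, and 0 of the 5 had an unadjusted p under 0.05).

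Nuclear genes that transcribe, copy, process and protect the mitochondrial genome showed no call either. Of 67 such genes 65 were listed and 57 tested, with 32 above and 25 below 0 in log2 fold change (55.9% of all tested genes were above 0), a median of 0.25 and 1 gene at an unadjusted p under 0.05. By list, 4 of 9 genes of transcription, 8 of 12 genes of replication and maintenance, 14 of 21 genes of RNA processing and modification and 6 of 15 genes of RNA stability and decay were above 0, with medians of -0.49, 0.71, 0.61 and -0.46. These genes had far lower counts than mt-Cytb and the rRNA rows, but not lower than every mitochondrial row. Hsd17b10, for example, had 2225 to 5260 normalized counts and was above mt-Nd4l in every library. Many of the nuclear genes were at 0 in single libraries.

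Polrmt, the mitochondrial RNA polymerase, had 0, 0.829 and 53.2 normalized counts across the Trf1+/+ and 192, 28.4 and 55.8 across the Trf1flox/flox libraries (log2 fold change 3.89, standard error 2.35). Tfam, which packages the mitochondrial genome and starts its transcription, had 0.891, 638 and 54.2 in Trf1+/+ against 269, 195 and 376 in Trf1flox/flox libraries (log2 fold change 2.74, standard error 2.04). The low values of the library labelled Trf1+/+ replicate 1 weigh on both. The value for Tfam was 0.53 without that library and 4.73 without Trf1+/+ replicate 2, and it was 0.23 in edgeR and 0.27 in DESeq2. That for Polrmt was 2.79 without the library labelled Trf1+/+ replicate 1, 5.67 without Trf1+/+ replicate 3, 2.32 in edgeR, 2.35 in DESeq2 and 2.07 with a pseudocount of 10. Lrpprc, which stabilises mitochondrial mRNAs, had 1272, 652 and 439 in Trf1+/+ against 296, 2.19 and 639 in Trf1flox/flox libraries, and its log2 fold change of -3.08 (standard error 1.68) was -0.72 without Trf1flox/flox replicate 2, -1.18 in edgeR and -1.31 in DESeq2. Its partner Slirp had 321, 339.7 and 444 in Trf1+/+ against 220.0, 334 and 522 in Trf1flox/flox libraries.

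The largest moderated statistics above 0 belonged to 3 RNA-modifying enzymes. Mettl15, a methyltransferase of the small-subunit rRNA, had 0, 1.66 and 164 in Trf1+/+ against 194, 387 and 101 in Trf1flox/flox libraries (log2 fold change 4.70, standard error 2.51). Mrm2, a methyltransferase of the large-subunit rRNA, had 0, 0.829 and 81.8 in Trf1+/+ against 49.8, 593 and 82.7 in Trf1flox/flox libraries (log2 fold change 4.68, standard error 2.53). Pus1, a pseudouridine synthase of tRNAs, had 0.891, 0 and 83.8 in Trf1+/+ against 137, 476 and 20.7 in Trf1flox/flox libraries (log2 fold change 4.38, standard error 2.56). All 3 were at or under 2 reads in the libraries labelled Trf1+/+ replicates 1 and 2, and Trf1+/+ replicate 3 overlapped the Trf1flox/flox libraries. In edgeR the log2 fold changes were 1.96 for Mettl15, 3.02 for Mrm2 and 2.78 for Pus1, in DESeq2 they were 2.04, 3.13 and 2.90, and with a pseudocount of 10 they were 2.93, 2.80 and 2.58. The largest below 0 were those of Ptcd2, Mterf4 and Grsf1. Ptcd2, a pentatricopeptide protein involved in the processing of mt-Cytb RNA, had 3186, 1491 and 527 in Trf1+/+ against 166, 232 and 608 in Trf1flox/flox libraries (log2 fold change -2.24, standard error 0.82, unadjusted p = 0.0179, adjusted p = 0.970 from limma). Mterf4, which acts in assembly of the mitochondrial ribosome, had 1129, 51.4 and 116 in Trf1+/+ against 125, 0 and 0 in Trf1flox/flox libraries (log2 fold change -5.25, standard error 2.66), a value that was -3.23 in edgeR, -3.34 in DESeq2 and -3.12 with a pseudocount of 10. Grsf1, an RNA-binding protein of mitochondrial RNA granules, had 2589, 2196 and 847 in Trf1+/+ against 1427, 226 and 798 in Trf1flox/flox libraries (log2 fold change -1.41, standard error 0.75), a value that was -0.66 without Trf1flox/flox replicate 2. Each of the 3 genes was highest in the library labelled Trf1+/+ replicate 1, and in each the groups overlapped.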

How the data were processed

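RNA of 500 sorted kidney cells from each of 6 mice was primed with oligo(dT), extended by template switching, amplified and sequenced from non-stranded libraries. Per the study's methods and the submitters' processing notes, the authors checked reads with FastQC 0.11.7, trimmed them, aligned them with TopHat 2.0.10, Bowtie 1.0.0 and SAMtools 0.1.19 (up to 3 mismatches and 20 multiple hits), counted them on GENCODE genes with HTSeq 0.6.1 and used DESeq2. The methods name GRCm38 and the notes GRCm39. Coordinates and printed sequences here are those of GENCODE annotation and transcripts on GRCm38. For TopHat the methods name a stranded library type (fr-second strand), although they call the libraries non-stranded. The counting options for strand and multiple hits are not given in the sources used here.

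The deposited normalized signal is the count of reads on a gene divided by a size factor of the library. All values (100%, within 0.01) were whole multiples of the value of 1 read (0.689 to 1.09 normalized counts), so reads were recovered. limma 3.58.1 (trend) was run on log2(normalized count + 1) for genes that reached 10 normalized counts in 3 or more libraries, with Benjamini-Hochberg adjustment over all 9966 genes tested and calls under 0.05. edgeR 4.0.16 (quasi-likelihood, TMM) and DESeq2 1.42.0 were alternatives on the recovered reads. The fits were tested only on simulated counts with less noise than these data, so that test does not show their power here. Shares and ratios were compared by exact two-sided permutation tests (scipy 1.17.1). Windows of 36, 50 and 75 bases of each mitochondrial gene were searched in all other GENCODE transcripts on both strands. Every mitochondrial row is accounted for, and rows with a mean of at least 10 are given in every library. Of the nuclear lists, 4 genes fixed by name and the 3 genes with the largest statistic in each direction are named. The members, gene lists and tests were chosen with earlier results of these data known. No genome sequence was used here, so copies outside annotated transcripts were not searched. Columns that could not be mapped to a sample numbered 0.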

Additional observations from a re-analysis of the deposited data

How the results depend on the processing

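With 3 mice a group, the smallest exact permutation p was 0.1, so no share could pass 0.05, and p-values refer to these 6 libraries only. The sequence search was not varied beyond the window length. No paired analysis was possible because the labels carry no replicate numbers; those used here were given in the order of the records and pair no mice. No mitochondrial row and no nuclear gene of the lists was called under any alternative run. The count of all genes called was 58 in DESeq2 and 0 in every other setting. The count of mitochondrial rows above 0 in log2 fold change was 6 as reported, 13 with upper quartile scaling and with scaling to the reads on other rows, 15 in edgeR, 19 in DESeq2 and 0 to 24 with each library left out. The median over all genes, 0.20 as reported, was 0.35 with upper quartile scaling and -0.05 in edgeR and in DESeq2. The log2 fold change of mt-Cytb became 0.017 and that of mt-Co1 0.022 in DESeq2, and that of mt-Nd6 became 0.10 with upper quartile scaling, 0.11 with scaling to other rows, 0.12 in edgeR and 0.20 in DESeq2. With each library left out, the ranges were -0.29 to 0.95 for mt-Rnr1, -0.90 to 0.50 for mt-Cytb, -0.77 to 0.43 for mt-Co1, -1.08 to 0.21 for mt-Nd5, -0.69 to 0.48 for mt-Nd6, -1.59 to -0.24 for mt-Tm and -0.45 to 0.52 for mt-Ts1. The difference in mitochondrial share was -0.72 points without the rRNA rows and -0.085 as a difference of log2 shares, and -7.63 to 9.73 points with each library left out. The complex IV difference ranged from -0.37 to 1.43 points; an alternative chosen after seeing the data, without the 5 genes copied in nuclear transcripts, gave 0.43. The cause of these shifts was not tested.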
